A study of Mus musculus with 2 samples.

Results

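Enrichment peaks were described at 8 mouse genes that write, copy or remove DNA methylation: Dnmt3l, Dnmt3a, Dnmt3b, Dnmt1, Uhrf1, Tet1, Tet2 and Tet3. The cells were E14 embryonic stem cells, a line of pluripotent mouse cells, transfected either with shGFP, the control hairpin RNA, or with shDnmt3L, a hairpin named for Dnmt3L. A member peak was any peak that touched, by at least 1 bp, an interval set around each gene on the mm9 build. The rule uses positions only. The intervals held 51 of the 55292 peaks of the shGFP library and 47 of the 45579 peaks of the shDnmt3L library. With 1 library in each group there is no replicate spread to test against, so values are described without p-values and differences stand for these 2 libraries only. Whether each culture was a clone or a pool is not given in the sources used here.

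The labels disagree on the mark. The sample names and the design speak of MeDIP and 5-methylcytosine, whereas the protocol names the GLIB method with the Hydroxymethyl Collector kit, which tags 5-hydroxymethylcytosine. The captured mark is therefore not named below. The read depth behind the lists is unknown, and intervals given below cover counting error only. The level of Dnmt3l RNA was not analysed here, and peaks on the gene are no check of the hairpin.

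As background, methylation of cytosine in mammals falls mostly on CG pairs. Dnmt3a and Dnmt3b place it on unmethylated DNA, and Dnmt3l, which has no catalytic activity of its own, binds and stimulates them and is abundant in embryonic stem cells and germ cells. Uhrf1 recognises the half-modified DNA left by replication and brings in Dnmt1, which copies the mark to the new strand. The Tet enzymes oxidise 5-methylcytosine to 5-hydroxymethylcytosine and further forms, and Tet1 and Tet2 are the forms known to be active in embryonic stem cells. A peak list of either mark over these genes thus reports on the genes of the same system that sets the mark.

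The start sites of these genes differ widely in CG content. RefSeq promoters of 300 bases (250 before and 50 after a start site, build GRCm38.p6) were found for all 8 genes, 15 in all, and the letters CG, which read the same on both strands, were counted in each. At least 1 CG was present in 94.6% of all 32851 promoters of that length, and their median was 7 CG. The 3 Dnmt3l promoters held 6, 4 and 3 CG, the fewest of any gene here except for the upstream Dnmt1 start, which held 2. Tet2 held 57, and 0.152% of all promoters held as many. Tet1 held 17, Tet3 22, Dnmt3b 30, the 2 Uhrf1 starts 12 and 33, the other Dnmt1 starts 12 and 33, and the 3 Dnmt3a starts 46, 47 and 18. Printed here is Dnmt3l, the gene for which the hairpin is named, from its most upstream start (chr10:78042037-78042336, plus strand). Also printed are Tet1 (chr10:62887275-62887574, minus strand) and Tet2 (chr3:133544341-133544640, minus strand), whose intervals had the fewest peaks in the shDnmt3L list. CG pairs are in capitals.
Dnmt3l: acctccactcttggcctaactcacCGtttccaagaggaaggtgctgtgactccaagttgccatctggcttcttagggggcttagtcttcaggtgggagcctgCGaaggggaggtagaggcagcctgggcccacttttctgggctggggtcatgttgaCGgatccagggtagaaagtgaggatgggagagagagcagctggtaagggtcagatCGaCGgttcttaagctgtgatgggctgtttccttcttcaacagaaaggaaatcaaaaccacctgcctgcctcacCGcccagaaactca
Tet1: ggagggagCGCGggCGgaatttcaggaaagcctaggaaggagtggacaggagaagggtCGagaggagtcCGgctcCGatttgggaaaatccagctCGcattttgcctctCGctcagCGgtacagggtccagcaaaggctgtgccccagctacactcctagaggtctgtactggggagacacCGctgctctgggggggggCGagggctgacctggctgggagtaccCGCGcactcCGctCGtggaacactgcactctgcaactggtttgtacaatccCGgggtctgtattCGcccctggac
Tet2: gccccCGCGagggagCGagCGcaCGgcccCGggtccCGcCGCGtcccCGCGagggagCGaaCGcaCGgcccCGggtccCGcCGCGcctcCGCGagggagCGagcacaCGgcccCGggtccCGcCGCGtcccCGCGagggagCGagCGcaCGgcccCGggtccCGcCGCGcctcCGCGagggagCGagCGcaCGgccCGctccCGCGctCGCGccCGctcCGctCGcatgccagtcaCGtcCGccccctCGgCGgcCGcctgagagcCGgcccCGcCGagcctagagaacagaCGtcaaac
These positions are on GRCm38 and the peaks are on mm9. No position was converted, so it was not determined whether a peak lies on a promoter, an exon or an intron.

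The intervals were 110 to 200 kb long, whereas the genes themselves span 20150 bp (Uhrf1) to 112885 bp (Dnmt3a) in GRCm38. Peaks in an interval can therefore belong to a neighbour. Below, peaks, ranks and covered lengths given for a gene are those of its interval. The nearest protein-coding genes on either side in that build were Aire and Icosl for Dnmt3l, Dtnb and Pomc for Dnmt3a, Commd7 and Mapre1 for Dnmt3b, Eif3g and S1pr2 for Dnmt1, Arrdc5 and Kdm4b for Uhrf1, Ccar1 and Slc25a16 for Tet1, Ppa2 and Cxxc4 for Tet2, and Bola3 and Dguok for Tet3.

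Summed over the 8 genes, the 2 libraries had similar numbers of peaks and a similar covered length, and most peaks lay at the same places. The shGFP library had 51 peaks (exact 95% Poisson interval 38.0 to 67.1) over 109.9 kb, and the shDnmt3L library 47 (34.5 to 62.5) over 111 kb. The number ratio, shDnmt3L over shGFP, was 0.922 (exact 95% interval 0.607 to 1.4), against 0.824 for the whole lists, and the covered ratio was 1.01 against 1.05. The interval of the number ratio treats the 2 counts as independent, although most peaks lay at the same places in both lists. A total of 39 places carried a peak in both lists, each a match of 1 peak to 1 peak. Another 12 of 51 shGFP peaks had no overlap in the other list, against 25.5% of all shGFP peaks, and 8 of 47 shDnmt3L peaks had none, against 12.6% of all shDnmt3L peaks. The shared share was 76.5% for shGFP (Wilson 95% interval 63.2 to 86.0%) and 83.0% for shDnmt3L (69.9 to 91.1%). Both intervals include the shares of the whole lists, 74.5% and 87.4%. They treat peaks as independent, although the peaks lie in 8 intervals of 1 library per group, so this is no test. The same holds for the limits on shares given below.

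**Figure D1:**
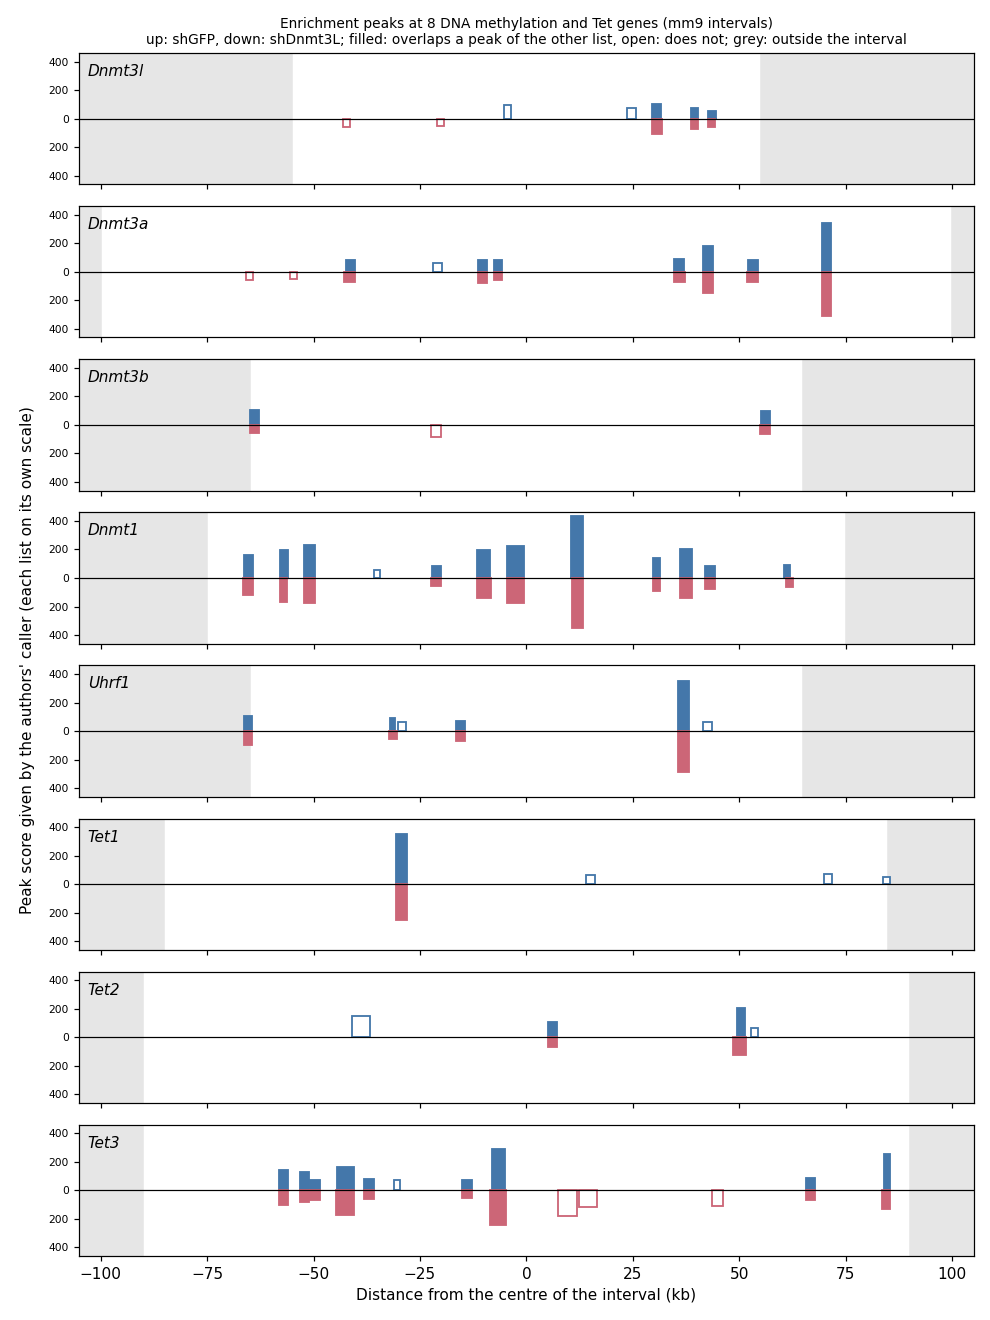
Peaks in the 8 intervals, drawn to scale by distance from the interval's centre in kb, with shGFP peaks upward and shDnmt3L peaks downward at a height equal to the score in their own list. Filled bars overlap a peak of the other list and open bars do not; 39 filled places stand beside 12 open shGFP and 8 open shDnmt3L bars, the latter only at Dnmt3l, Dnmt3a, Dnmt3b and Tet3.

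Among the genes for new methylation, the shDnmt3L library had as many peaks or more in the intervals as set. Dnmt3l itself (chromosome 10, 77470000 to 77580000) had 5 peaks in each library, covering 9.21 kb in shGFP and 8.87 kb in shDnmt3L, but 3 of the 5 were shared. The shared 3 lay close together between 77554490 and 77569478, towards the right end of the interval. The strongest peak of the interval was the same in both lists, from 77554522 to 77556654 in shGFP with a score of 106.75 and from 77554490 to 77556844 in shDnmt3L with a score of 107.09. The score is the value the authors' caller gave to a peak, with a lowest value of 50.01 in shGFP and 50 in shDnmt3L, and it ranks peaks within a list only. By that rank, 55.8% of all shGFP peaks and 54.4% of all shDnmt3L peaks scored lower, so the strongest peak at Dnmt3l ranked near the middle of each list.

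The unshared peaks at Dnmt3l lay in different places in the libraries. In shGFP they lay from 77519704 to 77521308 (1605 bp, score 95.13) and from 77548666 to 77550798 (2133 bp, score 77.46). In shDnmt3L they were a 1433 bp peak from 77482033 to 77483465 and a 1506 bp peak from 77504081 to 77505586, with scores of 57.17 and 52.94. Both shDnmt3L scores were near the bottom of the list, with 11.9% and 5.14% of the list below them. The nearest peaks of the other list were 3691 to 14800 bp away from these 4.

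Dnmt3a, the de novo enzyme with the longest gene here (chromosome 12, 3760000 to 3960000), had 8 peaks in shGFP and 9 in shDnmt3L, 7 of them shared. They covered 16.9 kb in shGFP and 18.7 kb in shDnmt3L. Its strongest peak was a high-ranking one in both lists, at 3929404 to 3931548 in shGFP (score 339.57, 92.7% of the list lower) and at 3929427 to 3931583 in shDnmt3L (score 308.95, 90.5% lower). The widths of that pair were 2145 and 2157 bp. The 1 shGFP peak without a partner, from 3838044 to 3840117, scored 62.73. The 2 such shDnmt3L peaks, from 3794050 to 3795700 and from 3804540 to 3806061, scored 57.38 and 52.06, again close to the lower limit.

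The interval of Dnmt3b, the second de novo enzyme (chromosome 2, 153430000 to 153560000), had the fewest control peaks of the 8 intervals, 2, against 3 in shDnmt3L. Both shGFP peaks were shared and lay near the ends of the interval, from 153430078 and from 153550132, so that 118 kb between them held no shGFP peak. The third shDnmt3L peak lay in this stretch, from 153472508 to 153474967, was 2460 bp wide and scored 83.03. It was the strongest of the interval in its list, with 39.2% of the list below it, and the nearest shGFP peak was 40347 bp away. The covered length was 4.13 kb in shGFP and 6.97 kb in shDnmt3L, a ratio of 1.69, which a single peak makes. With the interval widened by 50 kb at each end the ratio was 1.46, and with it shortened by 20 kb at each end 1 shDnmt3L peak and no shGFP peak were left. Among peaks scoring at least 100 the order turned, since 1 shGFP peak of 2.08 kb was left and no shDnmt3L peak. That shGFP peak was a shared one, with a score of 104.86 against 54.86 for its shDnmt3L match, so the cutoff removed 1 peak of a pair.

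At Dnmt1 and Uhrf1, the pair that copies methylation at replication, all 15 shDnmt3L peaks overlapped a control peak. A count of 0 in 15 allows a share of unshared peaks of up to 20%, a range that includes the 12.6% of all shDnmt3L peaks that were unshared. The Dnmt1 interval (chromosome 9, 20660000 to 20810000) was the most densely marked of the 8 in the control library, with 12 peaks in shGFP and 11 in shDnmt3L. They covered 18.8% and 18.1% of its 150 kb, whereas the gene spans 52683 bp in GRCm38. How many of these peaks lie on Dnmt1 itself was not determined. Of all windows of the same length, 150 kb, that had a peak in either list, 8.98% held at least 12 shGFP peaks and 7.61% at least 11 shDnmt3L peaks. The strongest Dnmt1 peak, also the strongest of all 8 genes in both lists, ran from 20745434 to 20748221 in shGFP (score 433.7, 95.7% of the list lower) and from 20745715 to 20748221 in shDnmt3L (score 350.74, 92.5% lower). The widest was 4055 bp in shGFP, from 20730418 to 20734472, and 4119 bp in shDnmt3L, from 20730386 to 20734504. The only shGFP peak without a partner, from 20699112 to 20700558, scored 54.39, and 8.18% of the list was below it.

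Uhrf1 (chromosome 17, 56390000 to 56520000) had 6 peaks in shGFP and 4 in shDnmt3L. Its strongest peak was shared and nearly the same in extent, from 56490688 to 56493080 in shGFP with a score of 351.42 and from 56490656 to 56493112 in shDnmt3L with a score of 283.61. The 2 control peaks without a partner, from 56424822 to 56426807 and from 56496572 to 56498568, scored 67.05 and 66.5. The first of them lay 198 bp from the nearest shDnmt3L peak. The covered length was 10.4 kb in shGFP and 6.87 kb in shDnmt3L, a ratio of 0.658. With the interval widened by 50 kb at each end it was 0.725, and at scores of at least 100 it was 0.849.

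The 3 Tet genes, whose products oxidise methylated cytosine, differed among themselves: Tet1 and Tet2 had fewer peaks in the shDnmt3L library and Tet3 had more, by peak numbers whose ratios carry counting intervals that include 1. Tet1 (chromosome 10, 62220000 to 62390000) had 4 peaks in shGFP and 1 in shDnmt3L. The single shared peak started on the same base in both, from 62274346 to 62276856 in shGFP (2511 bp, score 350.95, 93.2% of the list lower) and to 62276888 in shDnmt3L (2543 bp, score 248.55, 86.0% lower). The 3 other control peaks, from 62318892 to 62321155, from 62374854 to 62376746 and from 62388762 to 62390362, scored 66.5, 71.96 and 51.03, and the last crossed the end of the interval. Past the shared peak, 113 kb up to that end held no shDnmt3L peak. The covered length was 7.91 kb in shGFP and 2.54 kb in shDnmt3L, a ratio of 0.322. This difference lay in low-scoring peaks: at scores of at least 100 each list had 1 peak and the ratio was 1.01, and with the interval widened by 50 kb at each end it was 0.742.

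Tet2 (chromosome 3, 133080000 to 133260000) had 4 peaks in shGFP and 2 in shDnmt3L, both shared. One of the control peaks without a partner was the widest of all control peaks at the 8 genes, 4176 bp from 133129135 to 133133310, with a score of 151.04 and 72.0% of the list below it. The nearest shDnmt3L peak was 41659 bp away. Of all 15502 shGFP peaks with that score or more, 32, or 0.206%, had no shDnmt3L peak. Of all 1728 of that width or more, 17, or 0.984%, had none. The Tet2 peak, taken as the highest-scoring of the 12 unshared control peaks, set both cutoffs and is itself counted. It lies at the lower edge of each set, so these shares do not describe peaks of similar score or width. The other unshared peak, from 133222842 to 133224351, scored 65.08. The strongest peak was shared, from 133219358 to 133221449 in shGFP (2092 bp, score 204.1) and from 133218634 to 133221524 in shDnmt3L (2891 bp, score 127.02). The covered length was 10.04 kb in shGFP and 5.22 kb in shDnmt3L, a ratio of 0.520. At scores of at least 100 the ratio was 0.339 and in the widened interval 0.633, so it stayed below 1 in both. The score cutoff removed the shDnmt3L peak of a shared pair, which scored 103.68 in shGFP and 66.07 in shDnmt3L.

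Tet3 (chromosome 6, 83270000 to 83450000) had 10 peaks in shGFP and 12 in shDnmt3L, 9 of them shared. The 3 shDnmt3L peaks without a partner were the highest-scoring such peaks of the 8 genes. The first was the widest member peak of all, 4438 bp from 83367375 to 83371812 with a score of 176.94. The second, 4226 bp from 83372404 to 83376629 with a score of 117.81, began 591 bp after it. The third was 2605 bp wide, from 83403541 to 83406145, and scored 109.08. All 3 lay in a stretch of 70.7 kb without a shGFP peak, between 12408 and 19541 bp from the nearest one. Unshared shDnmt3L peaks of this kind were less rare in the list than their shGFP counterpart at Tet2: among the 10795 shDnmt3L peaks that scored 176.94 or higher, 8.66% had no shGFP peak, as did 21.1% of the 4192 that were 4226 bp or wider.

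The shared part of Tet3 was close in the 2 libraries. The 9 shared peaks summed to 21.5 kb in shGFP and 23.5 kb in shDnmt3L, while the unshared shDnmt3L peaks added 11.3 kb. The strongest was shared, from 83351973 to 83354966 in shGFP (score 289.5) and from 83351554 to 83355113 in shDnmt3L (score 242.09). The covered length of the interval was 23.1 kb in shGFP and 34.7 kb in shDnmt3L, a ratio of 1.51. It was 1.498 with peaks within 500 bp merged, 1.83 at scores of at least 100 and 1.22 in the interval widened by 50 kb at each end, where each list had 16 peaks.

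**Figure D2:**
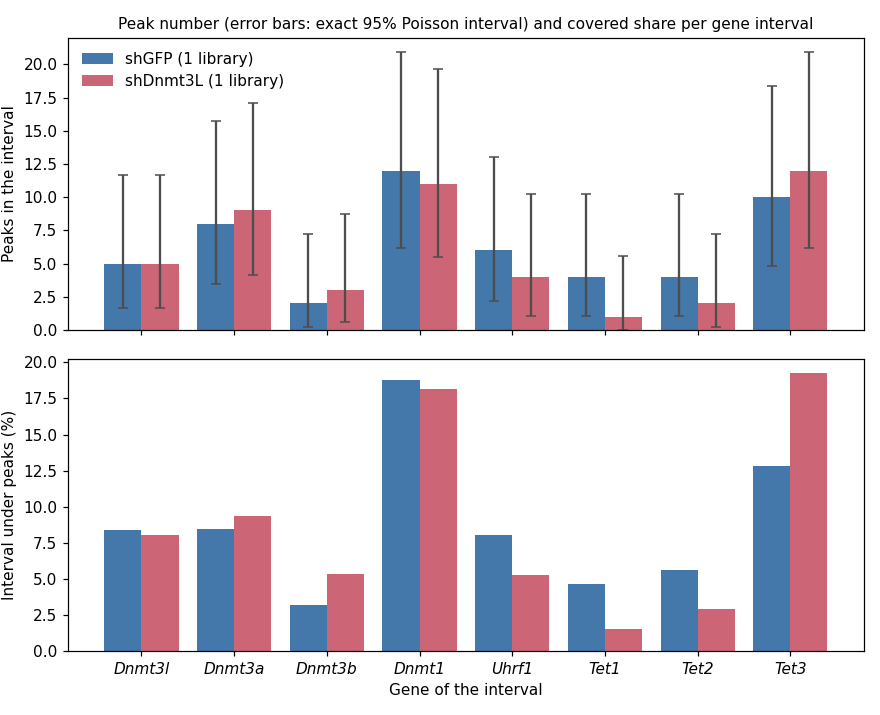
Number of peaks with exact 95% Poisson intervals (upper bars) and percent of the interval under peaks (lower bars) for each gene, with 1 library per group. The intervals of the peak numbers overlap at every gene, but they treat the 2 counts as independent, which shared peaks are not. The covered share is lower in shDnmt3L at Uhrf1, Tet1 and Tet2 and higher at Dnmt3b and Tet3 by at least 1.5-fold.

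Across the 8 genes, the shDnmt3L library had fewer peaks at 4, more at 3 and the same number at 1. Over the genome, windows of 150 kb had fewer shDnmt3L peaks in 55.8% and more in 13.6% of the 11742 that held any peak. A covered length at least 1.5 times lower in shDnmt3L was found at 3 of the 8 genes, Tet1, Tet2 and Uhrf1, against 22.6% of windows. A covered length at least 1.5 times higher was found at 2, Dnmt3b and Tet3, against 13.3% of windows. Among windows as long as each interval, 11.2% had a ratio as low as Tet1, 15.3% as low as Tet2 and 22.7% as low as Uhrf1, while 10.5% had one as high as Dnmt3b and 12.8% as high as Tet3. These shares are of windows with a peak in either list. A window without a shDnmt3L peak counts as a low ratio, and one without a shGFP peak as a high one. All 8 genes had peaks in both lists, as had 10219 of the 11742 windows of 150 kb. Of those 10219, 75 had a log2 ratio from −1.75 to −1.5, where Tet1 lies (−1.64). Each lower step of that width held fewer. From 0.75 to 1, where Dnmt3b lies (0.754), there were 337. How common such ratios were thus depends on the windows taken. The exact 95% interval of the number ratio was wide at each gene, for example 0.0051 to 2.53 at Tet1 and 0.475 to 3.10 at Tet3, and included 1 at all 8. It treats the 2 counts as independent, although most peaks were matched 1 to 1, so it does not measure the error of the ratio. That a gene did not differ is not read from it.

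**Figure D3:**
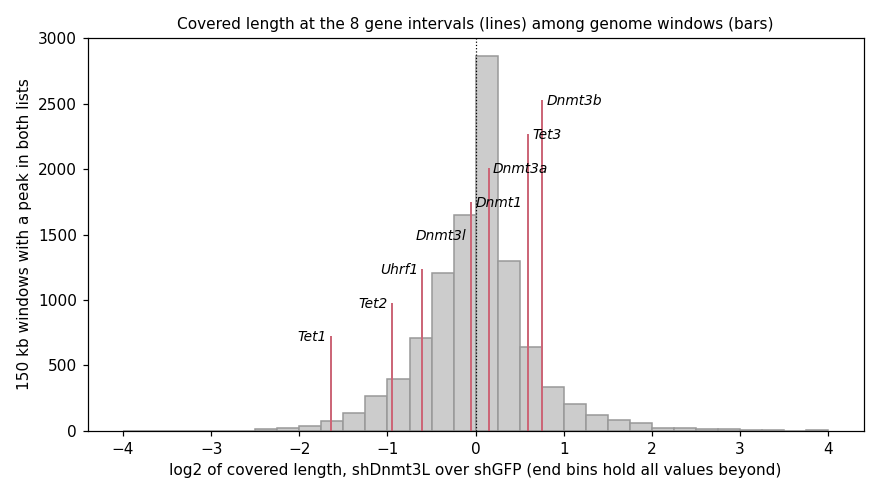
Log2 ratio of covered length, shDnmt3L over shGFP, for the 8 gene intervals (red lines, whose height has no meaning) and for the windows of 150 kb with a peak in both lists (grey bars, number of windows). Tet1 lies lowest and Dnmt3b highest, and all 8 lie within the range that the windows span.

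Where both libraries had a peak, its extent differed little. Of the 39 matched pairs, 34 (87.2%, Wilson 95% interval 73.3 to 94.4%) were wider in shDnmt3L, against 81.7% of all pairs. The median difference was 107 bp against 145 bp for all pairs. The 2 sets differ in strength. The median member pair had 54.8% of the shGFP list below it, against 62.5% for all pairs. In shDnmt3L the values were 37.2% and 50.7%. Pairs of similar rank were not compared. None of the 39 was at least 1.5 times as wide, against 8.6% of all pairs. The Wilson 95% interval of 0 in 39 reaches 8.97% and includes that share, whereas the limit of 3 counts in 39 is 7.69%, so no difference from all pairs is read from it. The pair with the highest ratio was the strongest Tet2 peak, 799 bp wider in shDnmt3L, or 1.38 times. At Tet3 all 9 pairs were wider in shDnmt3L, by 32 to 566 bp. The 4 pairs that were narrower in shDnmt3L lay at Dnmt1 (2 pairs, the larger difference −368 bp), Dnmt3a and Uhrf1, and 1 pair at Dnmt3a, from 3848743 to 3850681, had the same start and end in both lists. Summed over shared peaks, the width ratio was between 1.01 at Tet1 and 1.2 at Tet2, so the larger ratios of covered length above were made by peaks found in 1 list only.

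**Figure D4:**
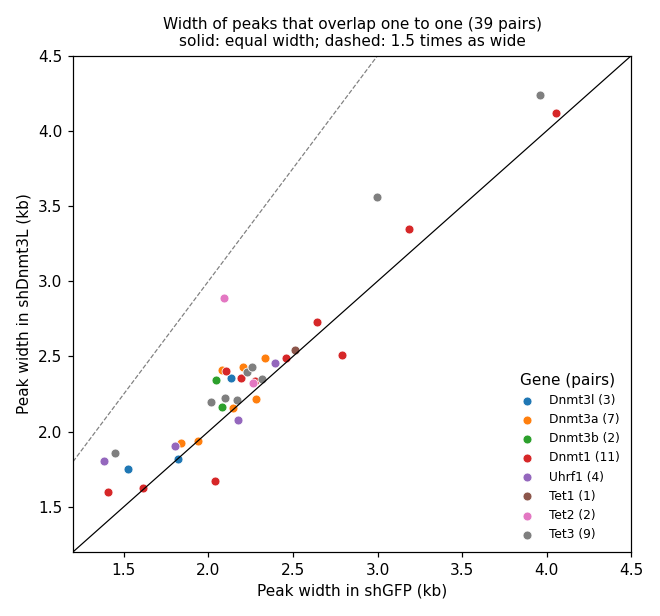
Width in kb of each of the 39 matched peaks in shGFP (horizontal) and shDnmt3L (vertical), coloured by gene, with a solid line for equal width and a dashed line for 1.5 times the width. Most points, 34 of 39, lie above the solid line and none reaches the dashed line.

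By score rank, the lowest member had 2.11% of the shGFP list below it and the highest 95.7%. In shDnmt3L these values were 3.68% and 92.5%. In shGFP their median score was 94.93, against 96.27 for the list, with 24 of 51 peaks at or above the list's median rank and 5 in its top 10% by score, 1 each at Dnmt3a, Dnmt1, Uhrf1, Tet1 and Tet3. In shDnmt3L the median was 80.59 against 99.05, with 20 of 47 at or above the median rank and 2 in the top 10%, at Dnmt3a and Dnmt1. Ranks from lists of different length show no change, so these are descriptions of each list. The strongest peak of the interval was at the same place in both lists at 7 of the 8 genes, the exception being Dnmt3b. The share of genome windows where this holds was not computed, so it is not read as particular to these genes. Unshared peaks scored low in shGFP, with a median of 66.8 against 104.86 for shared ones, and the Tet2 peak was the only 1 of 12 above 100. In shDnmt3L the medians were 70.2 and 80.59, and 3 of the 8 unshared peaks, all at Tet3, were above 100. Over the whole lists, 32 of 14107 unshared shGFP peaks scored at least 151.04, and 935 of 5724 unshared shDnmt3L peaks at least 176.94. Medians and shares above 100 for all unshared peaks were not computed, so these values are not read as particular to the 8 genes.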

How the data were processed

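The 2 peak lists, 1 per library, were used as deposited. The score of each peak is the value the authors' caller gave it; from its range it may be −10 times the log10 of a p-value, which no label or header states. Per the submitters' processing notes, the build was mm9 and the tools, whose roles are not listed, were MACS 1.4.1, Bowtie 0.12.7 and CASAVA 1.8. For the input control, duplicate or multiply mapped reads and depth, nothing is stated in the sources used here. Positions count the first base as 1. Overlap, merging and clipping ran in Python 3.11.15 with scipy 1.17.1, pandas 2.3.3 and numpy 2.4.6, and were tested on simulated data. A peak was shared at an overlap of 1 bp or more. Covered length was clipped to the interval, whereas widths are whole peaks, and 2 shGFP peaks and 1 shDnmt3L peak cross an edge. All peaks of a gene could be named; those given in full are the strongest, the widest and the unshared ones. Genes and intervals were chosen with earlier results of these data known. Windows tile each chromosome except the mitochondrial one. The wider pathway list was not analysed, since mm9 gene positions were not used here. RefSeq sequences served for CG counts only. Alternatives tried were scores of at least 100, the longer list cut to the length of the shorter, merging within 500 bp, midpoints, intervals changed by 50 or 20 kb, other overlap rules and each gene left out. The cutoff of 100 was the same in both lists although the score ranks peaks within a list only, so it can remove 1 peak of a shared pair.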

Additional observations from a re-analysis of the deposited data

How the results depend on the processing

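For the sums over the 8 genes, all 75 alternative values stayed within a range set around the value reported. For peak number and shared shares the range was the counting interval, which is wide for about 50 peaks a library. For covered length it was −0.59 to 0.62, a band as wide as that of peak number, and for the width difference 64 to 181 bp. Those 2 are not counting intervals. The alternatives use largely the same peaks, so staying within such ranges is a weak check. The log2 ratio of peak number ranged from −0.23 to −0.03 (reported −0.12), that of covered length from −0.19 without Tet3 to 0.09 without Tet1 (reported 0.016), the shared share from 71.8 to 80.9% for shGFP and from 77.8 to 85.7% for shDnmt3L, and the median width difference from 82 to 137 bp. For single genes, alternatives added after the data were seen gave 46 log2 ratios of covered length. At the 5 genes past 1.5-fold, 21 of 28 values kept both direction and side. The ratio came below 1.5-fold in 6: widened intervals at Dnmt3b, Uhrf1, Tet1 and Tet3, merged peaks at Tet3 and the higher score at Uhrf1. The remaining value turned direction, at Tet1, from −1.64 to 0.018 at scores of at least 100. Dnmt3b turned as well at that score, where no shDnmt3L peak was left against 1 of shGFP, a ratio of 0 with no log2 value, and its shortened interval had no shGFP peak to divide by. At the 3 genes under 1.5-fold, 5 of 18 values turned direction: Dnmt3l from −0.055 to 0.26 with lists of equal length and 0.14 at the higher score, Dnmt3a from 0.15 to −0.017 at the higher score, and Dnmt1 from −0.053 to 0.11 in the widened interval and 0.023 with lists of equal length. Dnmt3l passed 1.5-fold in the shortened interval, at −0.60. The causes were not tested. With only 1 library of each kind, libraries could not be paired across replicates, and peaks were matched by place only.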
